A study of Mus musculus with 6 samples.

Results

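The genes described here encode subunits of the receptors for glutamate and for GABA in whole mouse brainstem. They were taken by gene symbol from a list of 38 subunit genes drawn up with earlier results of these data known, and 37 of these were among the 18058 genes of the deposited expression table; the metabotropic receptor gene Grm6, known from retinal ON bipolar cells, was not analysed here. Of the 37, 23 encode glutamate receptor subunits (4 AMPA, 7 NMDA, 5 kainate, 1 delta and 6 metabotropic) and 14 encode GABA receptor subunits (12 GABAA and 2 GABAB). Other subunits of the same families were not part of the list, so each statement on a family covers the listed members only.

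Total RNA came from snap-frozen brainstems of 1-month-old mice, 3 wild type C57BL/6J (WT) and 3 carrying the Rag1tm1Mom null allele in homozygous form (Rag1-/-), a germline allele that leaves mice without mature T and B cells. Each library was made from a separate mouse, and no other allele or agent was named for either group. Depth, estimated from the step between low values, was 31220000 to 46080000 reads. Values were read counts scaled to the same total in every library (CPM), so a level is a share of the RNA of a whole tissue piece. Fewer cells of a type and less RNA per cell cannot be told apart in such samples.

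Glutamate is the main excitatory transmitter of the brain, and AMPA, NMDA and kainate receptors are tetrameric cation channels that open when glutamate binds. GABA is the main inhibitory transmitter, and GABAA receptors are pentameric chloride channels. Metabotropic glutamate (mGlu) receptors and GABAB receptors signal through G proteins, the latter as an obligate pair of GABAB1 and GABAB2. In brainstem these receptors carry the transmission within respiratory, autonomic, auditory and motor nuclei, and the choice of subunits sets the kinetics, calcium entry and drug sensitivity of each receptor.

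Some libraries stood apart, and these facts bear on what follows. Rag1 itself was higher in the libraries labelled Rag1-/- (2.6, 4.02 and 2.9 CPM) than in WT (0.236, 0.388 and 0.115 CPM), a log2 difference of 3.30 (limma-trend, adjusted p = 0.012), so the transcript did not check the label. Every direction given between the groups rests on the labels. Xist was at 172 and 177 CPM in WT 1 and WT 2 and at most 2.93 CPM in the other 4 libraries, so the sex-linked transcripts divided the WT group and not the group labelled Rag1-/-. The summed level of 8 cerebellar granule cell markers was 396 CPM in WT 3 and 197 CPM in Rag1-/- 2, against 119 to 168 CPM in the other 4 libraries. The same 2 libraries had the highest sums of 7 Purkinje cell markers (856 and 497 CPM, against 308 to 425 CPM) and of 5 hypothalamic markers (233 and 128 CPM, against 30.3 to 42.8 CPM), and the lowest sums of 7 hindbrain markers (38.3 and 34.7 CPM, against 69.8 to 139 CPM). Neuronal markers were detected throughout, at 5131 to 5823 CPM summed over 8 genes in WT and 5039 to 5772 CPM in libraries labelled Rag1-/-. The 8 forebrain markers summed to 47.1 to 113 CPM, mostly from Lamp5 (mean 64.4 CPM) and Bcl11b (12.2 CPM), while the cortical markers Emx1 and Tbr1 each averaged under 1 CPM.

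The receptor transcripts spanned a wide range of levels. To compare genes, CPM was divided by the length of the longest annotated transcript in kilobases (CPM per kb). On this scale the highest listed gene was Gabbr1, which encodes the agonist-binding GABAB1 subunit, at a mean of 142 CPM per kb over all 6 libraries, and the lowest was Gabrg3, encoding the GABAA gamma3 subunit, at 0.323 CPM per kb, a 441-fold range. Grin1, the gene of the GluN1 subunit that every NMDA receptor needs, came next at 69.2 CPM per kb, followed by Gabrb2 (GABAA beta2) at 58.3, Gria1 (GluA1) at 42.6, Gabbr2 (GABAB2) at 30.9, Gria4 (GluA4) at 22.8 and Grik5 (GluK5) at 21.7 CPM per kb. The library ranges of neighbours in this order overlapped in 29 of 36 pairs. They were separate below Gabbr1, Gabrb2, Gria1, Gabbr2, Grm3, Gabra2 and Gabre. Every listed gene was well above the counting limit: the lowest value of any gene in any library was 1.33 CPM, while 3 reads corresponded to 0.0651 to 0.0961 CPM.

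**Figure D1:**
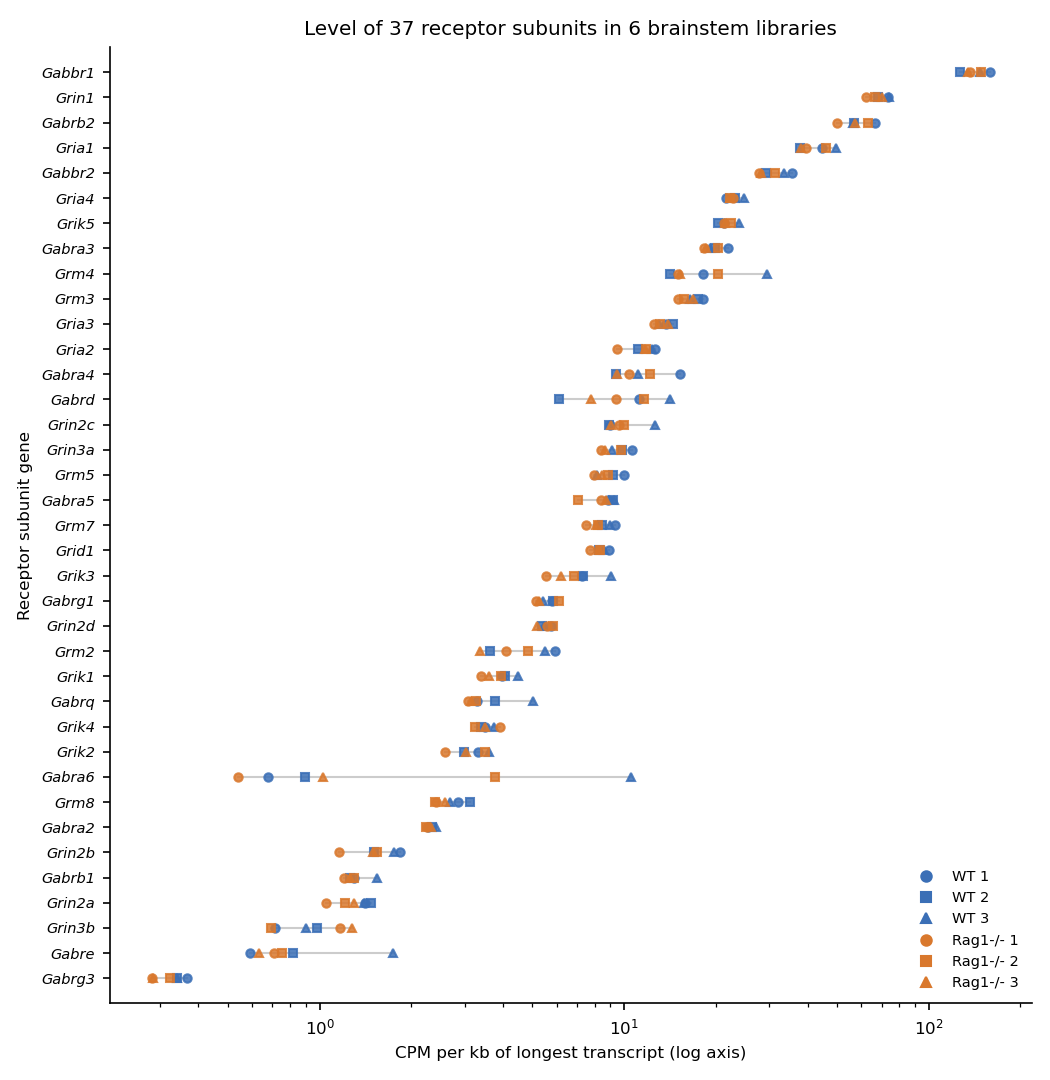
Level of each of the 37 receptor subunit genes in CPM per kb of the longest transcript, on a log axis, in order of mean level, with 1 point for each of the 6 libraries (WT and labelled Rag1-/-, n = 3 each). Gabbr1 sits highest at a mean of 142 CPM per kb and Gabrg3 lowest at 0.323 CPM per kb, and the points of Gabra6 spread from 0.539 to 10.5 CPM per kb.

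The order of levels depended on the length used. Grin2b, which encodes the GluN2B subunit, has a longest transcript of 24060 bases and a median annotated transcript of 703 bases, and its mean level was 1.55 CPM per kb with the first and 53.2 CPM per kb with the second. Gabbr1 ranked first with the longest, the median and the RefSeq-paired transcript length. Levels, shares and ratios per kb are on the longest transcript unless another length is named. The log2 differences between WT and Rag1-/- below are made within a gene and do not involve length.

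Among the AMPA receptor genes, Gria1 took the largest share of the summed CPM per kb of the 4 genes in all 6 libraries, at 47.3% ± 3.18 (SD, n = 3) in WT and 46.8% ± 2.52 (SD, n = 3) in the libraries labelled Rag1-/-. Gria4, whose GluA4 subunit gives fast-gating receptors, followed at 24.9% ± 1.71 in WT. Gria3 took 14.9% ± 1.85 in WT. Gria2, whose RNA-edited GluA2 subunit makes AMPA receptors nearly impermeable to calcium, took 12.9% ± 0.624 in WT on the longest transcript, and 27.8% over all libraries with the median transcript length. Gria1 led with each length tried and on CPM without any length.

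Among the 4 GluN2 genes, which set the kinetics and magnesium block of NMDA receptors, Grin2c led on the longest transcript at 53.6% ± 5.02 (SD, n = 3) in WT and 54.2% ± 1.03 (SD, n = 3) in the libraries labelled Rag1-/-. Grin2d, encoding the GluN2D subunit with slow deactivation, followed at 29.7% ± 3.4 in WT, and Grin2b and Grin2a were at 9.09% ± 0.995 and 7.65% ± 0.957. This order did not hold with every length: Grin2c took 46.3% with the RefSeq-paired length and 35.8% on CPM alone, but 14.2% with the median transcript, where Grin2b took 71.8%. Of the GluN3 genes, Grin3a was present at 62.9 to 79.7 CPM over the 6 libraries and Grin3b at 2.28 to 4.22 CPM.

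Among the kainate receptor genes Grik5, encoding the GluK5 subunit that needs a partner from GluK1 to GluK3 to form a channel, led at 53.5% ± 0.408 (SD, n = 3) in WT. Grik3 followed at 19.3% ± 0.901, and Grik1, Grik4 and Grik2 took 10.3%, 8.73% and 8.1%. The 6 listed mGlu genes were led by Grm4, a presynaptic group III receptor, at 31.6% ± 8.61 in WT, by mean only, with Grm3, a group II receptor of neurons and astrocytes, at 27.5% ± 4.13. Grm4 exceeded Grm3 clearly in WT 3 (41.4% against 23.1%) and Rag1-/- 2 (33.7% against 26%), the 2 libraries with the most cerebellar granule cell markers. In WT 1 and Rag1-/- 1 their shares were about equal, and in WT 2 and Rag1-/- 3 Grm3 was higher, at 31.2% against 25.2% and 30.8% against 27.9%. The Grm5, Grm7, Grm2 and Grm8 shares in WT were 14.5%, 14.1%, 7.81% and 4.58%. The only listed delta receptor gene, Grid1, was at 44.1 to 51.1 CPM.

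Among the 5 listed GABAA alpha genes, Gabra3 led at 42.9% ± 5.71 (SD, n = 3) in WT, with Gabra4 at 25% ± 5.33 and Gabra5 at 19.3% ± 2.46. Gabra2 took 4.95% ± 0.576. Gabra6 took 1.38% and 2.16% in WT 1 and WT 2 and 20% in WT 3, so its mean describes no library of the group. Grik5 and Gabra3 led their families by mean with each length tried and on CPM alone.

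**Figure D2:**
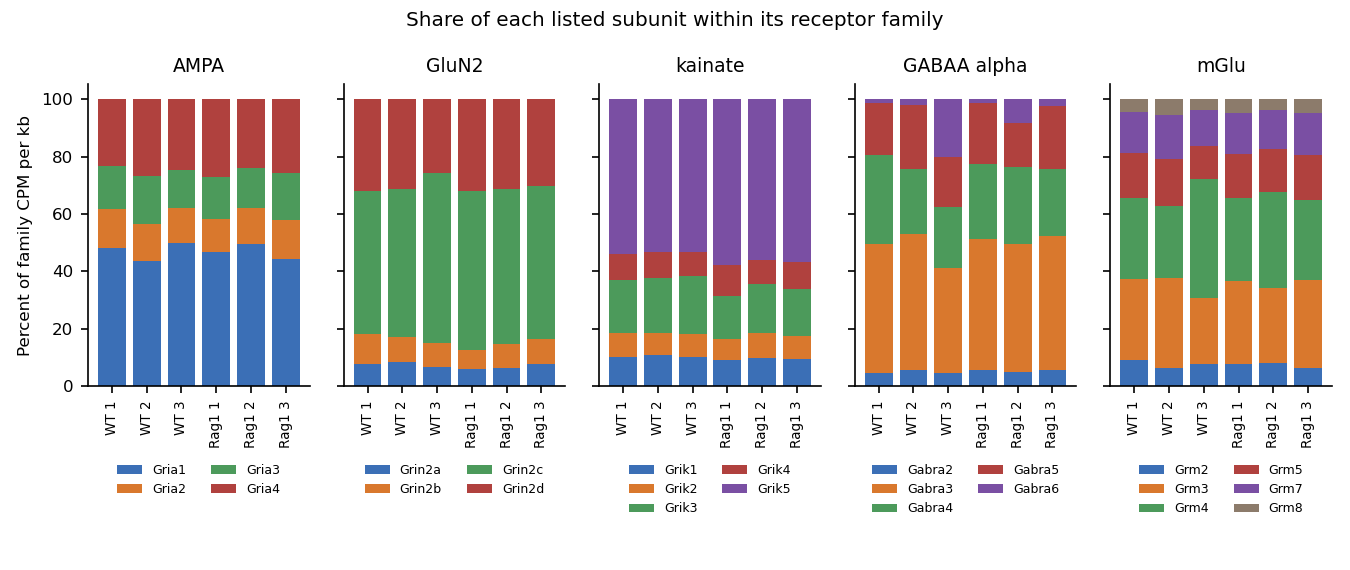
Share of each subunit gene in the summed CPM per kb of its family, in percent, for the 6 libraries, in stacked bars that start at 0. Gria1, Grin2c, Grik5, Gabra3 and Grm4 are the largest parts of the AMPA, GluN2, kainate, GABAA alpha and mGlu bars by mean, and the Gabra6 part is visible mainly in WT 3 (20%) and Rag1-/- 2 (8.29%).

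For 4 of these 5 leading genes the share did not separate the groups: the exact 2-sided permutation p was 0.9 for Gria1, 1 for Grin2c, 0.8 for Gabra3 and 0.9 for Grm4, where 3 against 3 libraries cannot give less than 0.1. The Grik5 share was 54%, 53.4% and 53.2% in WT and 57.9%, 56.2% and 56.8% in the libraries labelled Rag1-/-. All 3 of the latter were above all 3 WT values, a difference of 3.42 percentage points, with an exact permutation p of 0.1, the smallest this design allows, and 0.5 after Benjamini-Hochberg adjustment over the 5 families. Grik5 itself was at 85.9, 82.4 and 96.6 CPM in WT against 86.1, 91.4 and 87.2 CPM in libraries labelled Rag1-/-, with full overlap. The Grik3 share was 18.5%, 19.2% and 20.3% in WT and 15.2%, 17.1% and 16.4% in the libraries labelled Rag1-/-, again without overlap.

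GABAA genes lie in clusters, and neighbours in a cluster differed widely in level. On chromosome 5, Gabrg1, Gabra2, Gabra4 and Gabrb1 lie within 1.39 Mb (mm10, chr5:70751047-72137244), and their levels ran from 1.31 CPM per kb for Gabrb1 to 11.3 CPM per kb for Gabra4, an 8.64-fold range. Gabra4 exceeded Gabrb1 by 8.57-fold on the median transcript and by 2.58-fold on CPM without length. On chromosome 7, Gabra5 exceeded Gabrg3 by 26.6-fold in CPM per kb on the longest transcript within chr7:56724242-57510009, and by 4.81-fold on the median one. On chromosome 11, Gabrb2 exceeded Gabra6 by 20.1-fold on the longest transcript within chr11:42306437-42632591, and by 51.5-fold on the median one. On the X chromosome, Gabra3 exceeded Gabre by 22.5-fold, and Gabrq lies between the limits of the same stretch, chrX:72257432-72842602.

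The comparison of genotypes asked whether receptor transcripts differed between wild type mice and mice that lack mature T and B cells. None of the 37 genes passed an adjusted p of 0.05 (limma-trend on log2(CPM + 0.1), Benjamini-Hochberg over 16762 genes; smallest adjusted p 0.34), against a background of 0.0477% of all tested genes. At an unadjusted p of at most 0.05, 7 of the 37 (18.9%) were lower in the libraries labelled Rag1-/- and none was higher, where 9.29% of all tested genes were lower and 2.27% higher. The 7 were the NMDA genes Grin2a and Grin2b, the kainate genes Grik1 and Grik3, the mGlu genes Grm7 and Grm8 and the GABAA gene Gabrq. In 8 genes (21.6%) all 3 libraries labelled Rag1-/- were below all 3 WT libraries, against 14.4% of all tested genes, and in none were all 3 above, against 3.98%.

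**Figure D3:**
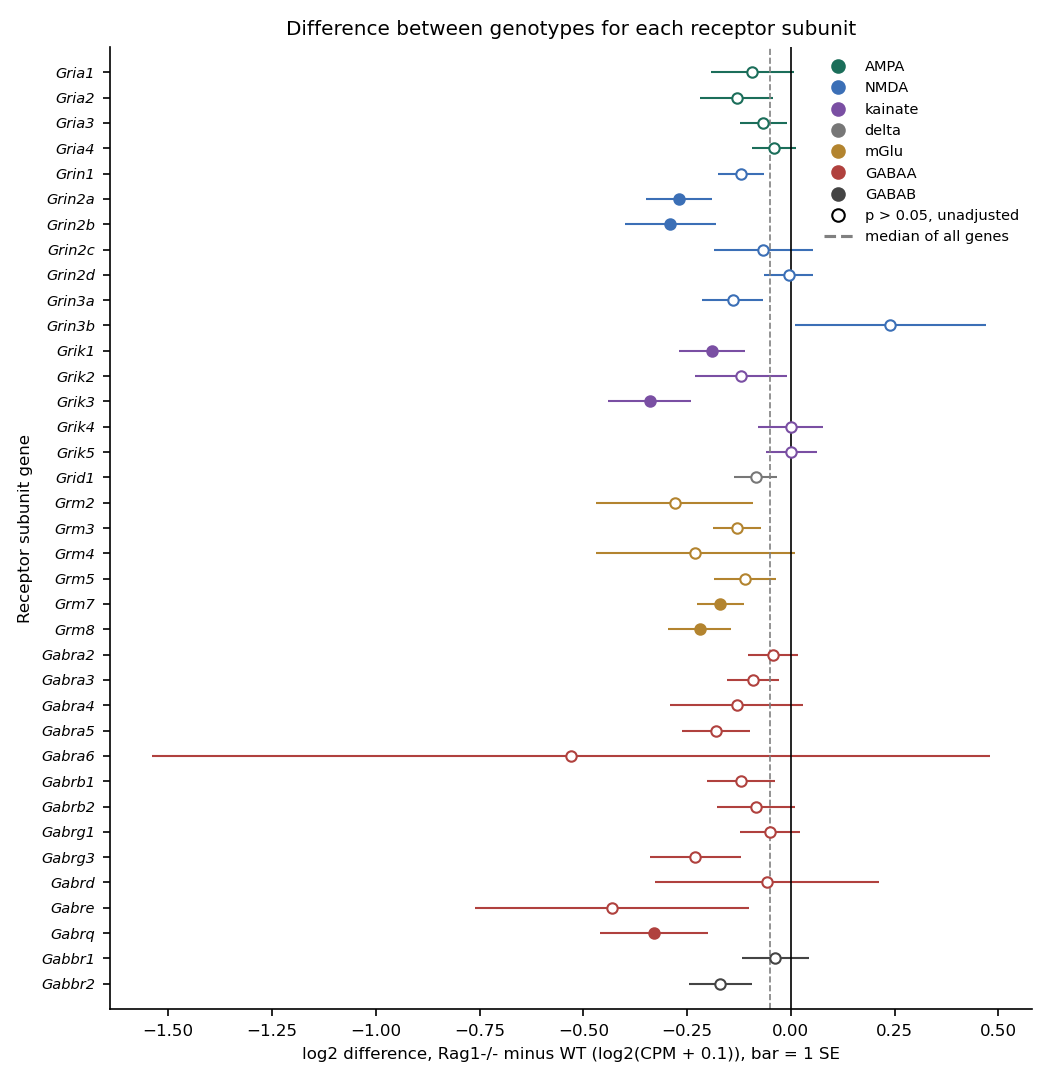
Log2 difference in level, Rag1-/- minus WT, for each of the 37 receptor subunit genes with its standard error (limma-trend, n = 3 per group). 35 of the 37 points lie below 0 with a median of -0.12, filled points mark the 7 genes at p of at most 0.05 before adjustment, and Gabra6 has the widest error (1.01).

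As a group, 35 of the 37 genes (94.6%) had a difference below 0, with a median of -0.12 and a range of -0.53 to 0.24; 30 were below 0 after median-of-ratios rescaling, 32 after quantile normalization and 28 without WT 3. The median was -0.071 without Rag1-/- 1, -0.18 without Rag1-/- 2, -0.18 without WT 2 and -0.079 after median-of-ratios rescaling. After quantile normalization it was -0.086. Over all tested genes in the main fit, 67.7% were below 0 and the median was -0.051. The median of all genes was -0.046 without Rag1-/- 1, -0.052 without Rag1-/- 2 and -0.054 without WT 2. It was -0.0071 after median-of-ratios rescaling and 0.0022 after quantile normalization. The share of all genes below 0 was taken in the main fit only. The family medians were -0.079 for AMPA, -0.12 for NMDA, -0.12 for kainate, -0.20 for mGlu, -0.13 for GABAA and -0.10 for GABAB. Rag1-/- 1 held the lowest value for 21 of the 37 genes, where it was lowest for 24.9% of all genes. WT 3 held the highest value for 16 of the 37 and WT 1 for 14, where they were highest for 28.7% and 20.1% of all genes.

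The count at unadjusted p rested on single libraries and on scaling. Without Rag1-/- 1 it was 2 (Grin2a and Grik3), where 5.18% of all genes were lower. Without WT 2 it was 11, all lower, where 9.73% of all genes were lower. Without the pair with the most cerebellar granule cell markers (WT 3 and Rag1-/- 2) it was 14, of which 13 were lower, where 9.22% of all genes were lower and 2.5% higher. After median-of-ratios rescaling it was 4, all lower, with 4.15% of all genes lower and 4.98% higher. By gene, an unadjusted p of at most 0.05 was met in 16 of 16 alternative settings by Grik3, in 15 by Grin2a, in 13 by Grm7, in 11 by Grm8, and in 8 each by Grin2b, Grik1 and Gabrq. These genes were picked at this threshold in the main fit. The settings refit the same libraries, some with little change, so these counts are not repeated tests. Beside these differences, the summed level of 8 oligodendrocyte markers was 19771 to 22967 CPM in WT against 25522 to 26818 CPM in libraries labelled Rag1-/-, and 7 of the 8 were higher at an unadjusted p of at most 0.05, none after adjustment. CPM values share 1 total, and the part of these abundant transcripts in the receptor differences was not tested. The neuronal marker list had a median log2 difference of 0.015, with 0 of 8 genes at an unadjusted p of at most 0.05. The sum of 8 astrocyte markers was 2995 to 3128 CPM in WT against 3161 to 3284 CPM in libraries labelled Rag1-/-. That of 5 oligodendrocyte precursor markers was 310 to 332 CPM against 344 to 367 CPM. The median log2 differences of these lists were 0.017 and -0.016, each with 1 gene higher at that threshold. Sums of microglia and endothelial markers overlapped between the groups.

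Grin2a (chr16:9577710-9992533), encoding GluN2A, the subunit that gives NMDA receptors their faster decay in mature neurons, was at 20.7, 21.5 and 20.6 CPM in WT against 15.4, 17.7 and 19 CPM in libraries labelled Rag1-/-. The WT values were nearly equal and all lay above the other group. The log2 difference was -0.27 with a standard error of 0.08 (limma-trend, unadjusted p = 0.00845, adjusted p = 0.34). Grin2b, the gene of GluN2B, which dominates before and shortly after birth in many regions, was at 44.2, 36.4 and 42.4 CPM in WT against 27.9, 37.2 and 36.1 CPM in libraries labelled Rag1-/-. WT 2 fell within the range of the other group, and Rag1-/- 1 was the lowest library. The log2 difference of Grin2b was -0.29 with a standard error of 0.11 (limma-trend, adjusted p = 0.403), and -0.16 without Rag1-/- 1. On the longest transcripts the level of Grin2b relative to Grin2a per kb was 1.2 ± 0.145 in WT and 1.18 ± 0.0898 in the libraries labelled Rag1-/- (SD, n = 3 each; exact permutation p = 0.9). Over all libraries this ratio was 0.357 with the RefSeq-paired and 11.5 with the median length, so which of them is higher depends on the length.

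The remaining NMDA genes did not pass the unadjusted threshold. Grin1 was at 313, 292 and 317 CPM in WT against 267, 286 and 300 CPM in libraries labelled Rag1-/-, with an overlap at WT 2 and Rag1-/- 3 and a log2 difference of -0.12. Grin3a had a log2 difference of -0.14 and Grin2d one of -0.0051. Grin3b, the lowest of the NMDA genes in CPM, had the largest difference above 0 of all 37, at 0.24 with a standard error of 0.23. It moved from 0.073 to 0.50 as single libraries were left out, the highest without Rag1-/- 2 (limma-trend, unadjusted p = 0.0164), and was 0.54 without WT 3 and Rag1-/- 2.

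Grik3 (chr4:125490831-125714173), encoding the low-affinity kainate subunit GluK3, was at 65.1, 65.5 and 81.4 CPM in WT against 49.8, 61.4 and 55.7 CPM in libraries labelled Rag1-/-. WT 3 stood above the other WT libraries, and the groups did not overlap. The log2 difference was -0.34 with a standard error of 0.10 (limma-trend, unadjusted p = 0.00867, adjusted p = 0.34). Without WT 3 it was -0.24. Grik1, encoding GluK1, was at 14.5, 14.9 and 16.4 CPM in WT against 12.4, 14.4 and 13.2 CPM in libraries labelled Rag1-/-, lower in all 3 by a small margin. Its log2 difference was -0.19 with a standard error of 0.08 (limma-trend, adjusted p = 0.413). Grik2 had a log2 difference of -0.12, and Grik4 and Grik5 were at -0.00017 and 0.0014.

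Grm7, encoding the low-affinity presynaptic receptor mGlu7, was at 39.4, 35.7 and 37.8 CPM in WT against 31.7, 34.4 and 34 CPM in libraries labelled Rag1-/-. The highest of the latter was below the lowest WT value. The log2 difference was -0.17 with a standard error of 0.057 (limma-trend, adjusted p = 0.359). Grm8, its group III relative mGlu8, was at 13.7, 14.9 and 12.9 CPM in WT against 11.6, 11.5 and 12.4 CPM in libraries labelled Rag1-/-, again without overlap. The log2 difference of Grm8 was -0.22 with a standard error of 0.076 (limma-trend, adjusted p = 0.372). Of the other mGlu genes, Grm2, Grm3 and Grm5 had log2 differences of -0.28, -0.13 and -0.11, none at an unadjusted p of at most 0.05, and that of Grm2 ran from -0.49 to -0.14 as single libraries were left out.

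**Figure D4:**
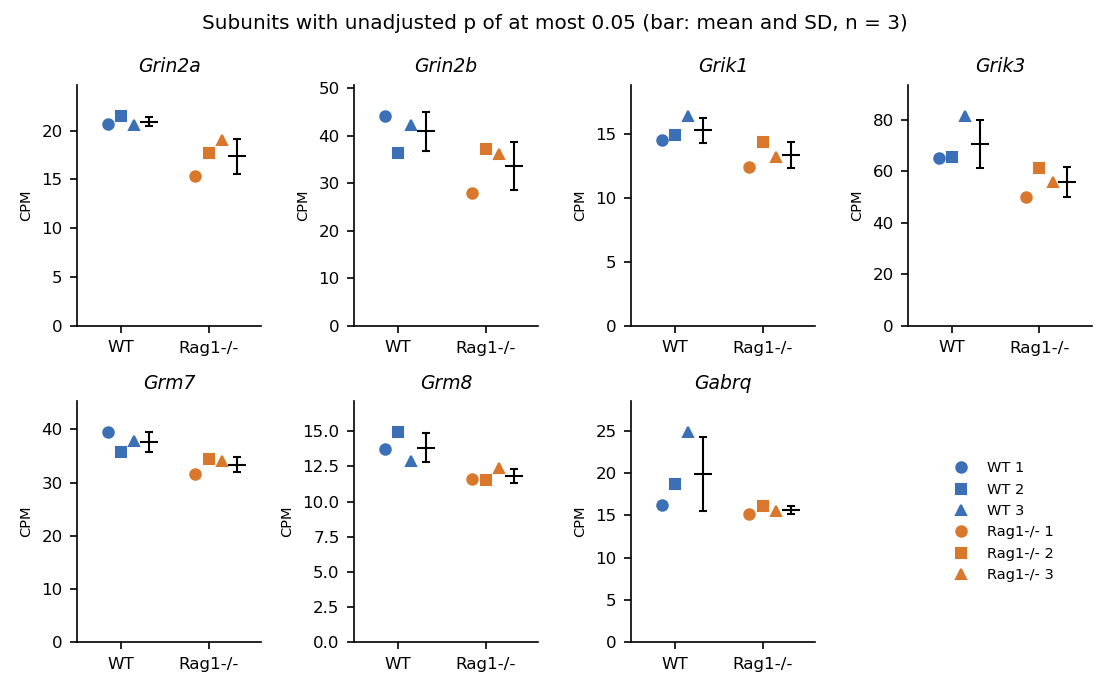
CPM in each of the 6 libraries for the 7 subunit genes at p of at most 0.05 before adjustment, with the mean and SD of each group (n = 3), on axes that start at 0. The WT and Rag1-/- points are separate for Grin2a, Grik1, Grik3, Grm7, Grm8 and Gabrq and overlap for Grin2b, and none of the 7 has an adjusted p below 0.34.

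The 4 AMPA genes had log2 differences of -0.041 (Gria4) to -0.13 (Gria2), with adjusted p values of 0.584 to 0.781 (limma-trend). Gria1 was at 248, 210 and 276 CPM in WT against 219, 255 and 211 CPM in libraries labelled Rag1-/-, interleaved between groups. Its log2 difference was -0.093 with a standard error of 0.10, and it ran from -0.20 without WT 2 to -0.0026 without WT 3. Gria2 was at 124 ± 8.13 CPM in WT against 114 ± 13.7 CPM in libraries labelled Rag1-/- (SD, n = 3 each), and its log2 difference was -0.024 without Rag1-/- 1. The delta receptor gene Grid1 had a log2 difference of -0.085.

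Gabrq, encoding the GABAA theta subunit found in monoaminergic and hypothalamic neurons, was at 16.2, 18.7 and 24.8 CPM in WT against 15.2, 16.1 and 15.5 CPM in libraries labelled Rag1-/-. The spread lay in WT, where WT 3 was highest, and WT 1 was just above Rag1-/- 2. The log2 difference was -0.33 with a standard error of 0.13 (limma-trend, adjusted p = 0.415), and without WT 3 it was -0.16. Gabre, its neighbour on the X chromosome, was at 2.55, 3.51 and 7.47 CPM in WT against 3.06, 3.23 and 2.73 CPM in libraries labelled Rag1-/-. WT 3 stood far above all others, WT 2 was just above the other group, and WT 1 was the lowest library. The log2 difference of Gabre was -0.43 with a standard error of 0.33, and 0.0043 without WT 3. With a term for the 2 libraries that had Xist over 100 CPM, both genes passed adjustment (limma-trend, adjusted p = 0.0329 for Gabrq and 0.0403 for Gabre), at -0.67 and -1.29, where 134 of all 16762 genes passed against 8 without the term. In that fit the WT level rests on WT 3 alone, the library with the most hypothalamic and cerebellar marker RNA, and the part of that RNA was not tested.

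Of the other GABAA genes, Gabra5 and Gabrg3 did not overlap between groups. Gabra5, whose alpha5 subunit is known from extrasynaptic receptors, was at 23.7, 24.6 and 24.8 CPM in WT against 22.5, 18.8 and 23.3 CPM in libraries labelled Rag1-/-, with Rag1-/- 2 lowest. Its log2 difference was -0.18 with a standard error of 0.082 (limma-trend, adjusted p = 0.433), and -0.091 without Rag1-/- 2. Gabrg3 was at 3.59, 3.32 and 3.33 CPM in WT against 2.74, 3.17 and 2.76 CPM in libraries labelled Rag1-/-, a log2 difference of -0.23 with a standard error of 0.11. Gabrb2, the most abundant of the listed GABAA genes per kb, was at 265, 227 and 226 CPM in WT against 199, 252 and 228 CPM in libraries labelled Rag1-/-. Gabra3 was at 80.5, 72.5 and 70.2 CPM in WT against 66.9, 74.2 and 68.2 CPM in libraries labelled Rag1-/-. The groups overlapped for both genes. The log2 differences of Gabra4, Gabrb1, Gabrg1 and Gabra2 were -0.13, -0.12, -0.05 and -0.043. Gabra2 was the steadiest of all 37 genes, at 13.1 to 14.1 CPM over the 6 libraries.

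Gabbr1 was at 833, 667 and 774 CPM in WT against 720, 781 and 707 CPM in libraries labelled Rag1-/-, with full overlap and a log2 difference of -0.037. Gabbr2, whose product couples the pair to its G protein, was at 204, 168 and 192 CPM in WT against 160, 180 and 162 CPM in libraries labelled Rag1-/-. WT 2 was within the range of the other group, and the log2 difference was -0.17 with a standard error of 0.076 (limma-trend, unadjusted p = 0.0528, adjusted p = 0.436), and -0.11 without WT 1. Within each library the ratio of Gabbr1 to Gabbr2 per kb was 4.47, 4.34 and 4.42 in WT and 4.94, 4.77 and 4.79 in the libraries labelled Rag1-/-. All 3 of the latter were higher, with an exact permutation p of 0.1, the smallest possible here, and 0.4 adjusted over the 4 ratios computed, which were chosen after values were seen.

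Of the 4 subunit genes that varied most between libraries, 3 are known from cerebellar granule cells. In all, 27 of the 37 genes varied by less than 1.5-fold from the lowest to the highest library, and 4 varied by more than 2-fold: Gabra6, Gabre, Gabrd and Grm4. Gabra6 (chr11:42306437-42321072), whose alpha6 subunit is a standard marker of cerebellar granule cells, was at 1.68, 2.22 and 25.8 CPM in WT against 1.33, 9.31 and 2.53 CPM in libraries labelled Rag1-/-, a 19.4-fold range. WT 3 and then Rag1-/- 2 were highest, as they were for Cbln3, a granule cell gene, at 108 and 28.7 CPM against 6.01 to 9.59 CPM elsewhere. Of the other granule cell markers, Fat2, Pax6, En2 and Neurod1 had this order, and Zic1, Zic2 and Barhl1 did not. WT 1 exceeded Rag1-/- 2 in Zic1 (94 against 79.5 CPM) and Zic2 (35.8 against 32.2 CPM). In Barhl1, Rag1-/- 2 (6.56 CPM) was below each WT library (7.39, 8.55 and 9.26 CPM). The log2 difference of Gabra6 was -0.53 with a standard error of 1.01 (limma-trend, adjusted p = 0.857), and it was 0.69 without WT 3. Leaving out both WT 3 and Rag1-/- 2 gave -0.065.

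Grm4, the main mGlu receptor of granule cell terminals, was at 83.7, 65 and 136 CPM in WT against 69.1, 93.4 and 70.1 CPM in libraries labelled Rag1-/-, with the same 2 libraries highest in their groups. Its log2 difference was -0.23, and 0.058 without WT 3. Grin2c, encoding the GluN2C subunit of mature granule cells and some other neurons and glia, was at 44.1, 43.5 and 61.6 CPM in WT against 47.2, 49.2 and 44.4 CPM in libraries labelled Rag1-/-. WT 3 was the highest library, while WT 1 and WT 2 were both below all libraries labelled Rag1-/-. The log2 difference went from -0.066 to 0.10 without WT 3. Gabrd, the delta subunit of extrasynaptic receptors in granule cells and forebrain, was at 30.3, 16.5 and 38.1 CPM in WT against 25.5, 31.4 and 21.1 CPM in libraries labelled Rag1-/-. Its highest values were in WT 3 and Rag1-/- 2, but WT 1 was close to them, and its log2 difference of -0.058 became 0.20 without WT 3. The part of cerebellar and hypothalamic marker RNA in these 4 genes was not tested beyond the values without these libraries.

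**Figure D5:**
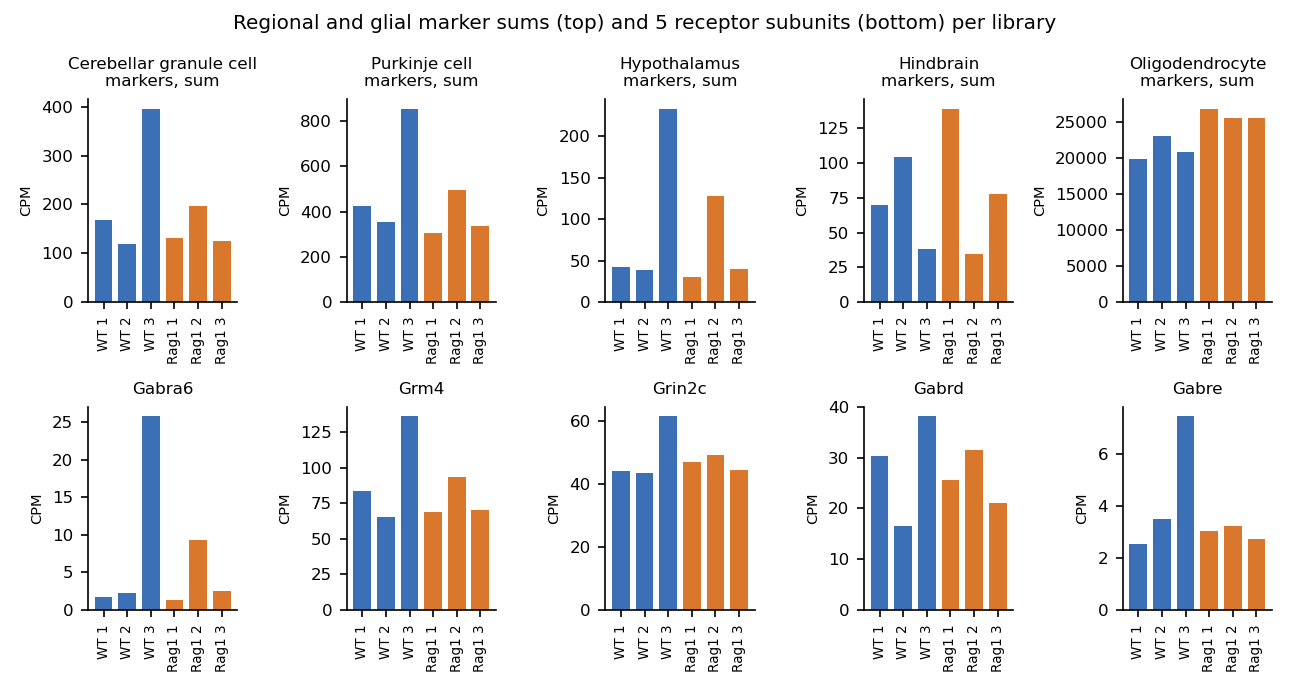
Bars of CPM in each library, WT and Rag1-/- in different colours. The top row gives summed markers of cerebellar granule cells, Purkinje cells, hypothalamus, hindbrain and oligodendrocytes. The bottom row gives Gabra6, Grm4, Grin2c, Gabrd and Gabre. WT 3 and Rag1-/- 2 have the highest granule cell marker sums (396 and 197 CPM) and the highest Gabra6 values (25.8 and 9.31 CPM).

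The promoters of 2 granule cell subunits show how unlike their start regions are. The 100 bases before the annotated start of each are given 5′ to 3′ on the gene's strand (RefSeq, GRCm38.p6, minus strand for both), with GCCAA in capitals, an arm of the palindromic site of nuclear factor I, a factor family known from granule cell maturation.
Gabra6, chr11:42321073-42321172: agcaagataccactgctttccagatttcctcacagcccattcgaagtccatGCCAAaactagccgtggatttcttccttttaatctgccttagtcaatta
Grin2c, chr11:115267244-115267343: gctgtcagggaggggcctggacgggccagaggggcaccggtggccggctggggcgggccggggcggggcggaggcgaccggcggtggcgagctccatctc
Over the 250 bases before the start, the Gabra6 promoter held 2 CpG dinucleotides, where the median of 32851 mouse promoters was 6 and that of the 27 listed genes with an entry was 16. Of all promoters, 29% held at most as many as Gabra6. Among the listed genes, Gabra3 (0), Gabrg1 (1) and Grin3b (2) held as few or fewer. The Grin2c promoter held 15, and 27.3% of all promoters held at least as many. GCCAA on either strand (TTGGC on the other) occurred in 12 of the 27 listed promoters and in 41.5% of all promoters.

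Receptors work with auxiliary, scaffold and organiser proteins, and 64 such genes were examined beside the subunits. None passed an adjusted p of 0.05 (limma-trend, smallest adjusted p 0.212). At an unadjusted p of at most 0.05, 6 (9.38%) were lower in the libraries labelled Rag1-/- and 2 (3.12%) higher, close to the backgrounds of 9.29% and 2.27%, and the median log2 difference was -0.041. By role, 2 of 15 AMPA receptor auxiliary genes were lower and 1 was higher, 1 of 20 glutamate receptor scaffold and kinase genes was lower, 1 of 10 extracellular organisers was lower and 1 higher, 2 of 12 GABAA receptor scaffold and trafficking genes were lower, and 0 of 2 kainate and 0 of 5 GABAB auxiliary genes were at this threshold.

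Frrs1l, which is needed for AMPA receptor assembly in the endoplasmic reticulum, had the smallest p of the 64. It was at 85.6, 83.2 and 90.9 CPM in WT against 70.2, 74.5 and 71 CPM in libraries labelled Rag1-/-. The groups were well apart, with a log2 difference of -0.27 and a standard error of 0.048 (limma-trend, unadjusted p = 0.000419, adjusted p = 0.212). Cacng2, encoding stargazin, which carries AMPA receptors to the synapse, was at 59.8, 57.8 and 59 CPM in WT against 66.9, 62.9 and 62.6 CPM in libraries labelled Rag1-/-, without overlap in the opposite direction (log2 difference 0.12, unadjusted p = 0.0228 by limma-trend). Gsg1l, another AMPA auxiliary gene, was at -0.14. Dlg3, the SAP102 scaffold of NMDA receptors, was at 74.2 ± 5.21 CPM in WT against 65.8 ± 3 CPM in libraries labelled Rag1-/- (SD, n = 3 each), a log2 difference of -0.17. Hap1, which takes part in GABAA receptor recycling, had a log2 difference of -0.21 and the synaptic organisers Cbln4 and C1ql2 had differences of -0.24 and 0.22, with unadjusted p of 0.0476, 0.0403 and 0.0499 by limma-trend.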

How the data were processed

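Total RNA of 6 whole brainstems was sequenced on an Illumina HiSeq, and the authors aligned reads with STAR 2.5.3a to mm10 with RefSeq transcripts, counted genes and scaled the counts in Partek Flow. The deposited values are CPM with 0.0001 added, 1 column per mouse, and columns of the authors' own comparison were not used. Low values gave estimated depths of 31220000 to 46080000 reads, but only 86.3% to 88.1% of them were whole reads within 0.1 read, so counts were not recovered. Depth covers counting error only.

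The 16762 genes averaging 0.1 CPM or more were tested on log2(CPM + 0.1) with limma 3.58.1 in R 4.3.3 (limma-trend, Rag1-/- minus WT, Benjamini-Hochberg), which was tested on simulated data. The pseudocount understates differences of low genes. CPM per kb used the longest GENCODE M21 transcript. Shares and ratios were compared by 2-sided exact permutation. Alternatives were other pseudocounts (0.01 and 1) and filters, rescaling, limma without trend, a replicate block, an Xist term and leaving out libraries. Leaving out WT 3 with Rag1-/- 2 and the RefSeq-paired length were chosen after seeing the data. Same-numbered samples shared only a number. Genes given in every library were those with unadjusted p of at most 0.05, the highest of each family and known granule cell subunits; other subunits given so were chosen after their values were seen. Partner genes at unadjusted p of at most 0.05 were named. The members and lists were chosen with earlier results of these data known. Protein sequences were not used here. A partner gene that met the rule is not reported here.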

Additional observations from a re-analysis of the deposited data

How the results depend on the processing

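No receptor subunit and no partner gene passed an adjusted p of 0.05 by limma in the settings run, except with the Xist term, where 2 subunits and 4 partner genes (Shisa6, Frrs1l, Homer3 and Cbln1) did, of 134 genes in all (8 without it). At an unadjusted p of at most 0.05 the subunit count of 7 became 4 after median-of-ratios rescaling, 3 after quantile normalization, 14 without the pair WT 3 and Rag1-/- 2, 10 with the Xist term, 5 without trend and 5 with the replicate block. The share of all genes lower at that threshold was 4.15%, 3.82%, 9.22%, 12.3%, 7.67% and 6.59% in these settings, in that order. The subunit count was 2 to 11 when single libraries were left out (2 without Rag1-/- 1, 11 without WT 2). The partner count of 8 became 5 after median-of-ratios rescaling, 5 after quantile normalization, 1 without trend, 16 with the Xist term, 5 with the replicate block, and 2 to 15 when single libraries were left out (2 without Rag1-/- 1, 4 without Rag1-/- 3, 15 without WT 2). The partner counts cover both directions, and the shares of all genes moved too. At the same threshold 4.98% of all genes were higher after median-of-ratios rescaling and 5.1% after quantile normalization. The share higher was 2.12% without trend and 1.52% with the replicate block. Without Rag1-/- 1, Rag1-/- 3 and WT 2, 5.18%, 7.53% and 9.73% of all genes were lower and 1.45%, 2.29% and 2.35% higher. The correlations of deviations of same-numbered samples were 0.0926, -0.22 and -0.0183, so the numbers were not taken as pairs.

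Of the single-gene log2 differences under alternatives, 553 kept direction and side of the adjusted p threshold of 0.05, 2 passed it and 37 turned direction. Without WT 3 and Rag1-/- 2, Gria4 was 0.012, Grin2c 0.064, Grik4 0.10 and Gabrd 0.051. After median-of-ratios rescaling, Gria4 was 0.0032, Grin2d 0.039, Grik4 0.044, Gabra2 0.00098 and Gabbr1 0.0071. After quantile normalization, Grin2d was 0.032, Grik4 0.04 and Gabra2 0.0037. With the Xist term, Gria3 was 0.0093, Grin2d 0.013, Grik5 -0.13, Grm5 0.05 and Gabrg1 0.02. Leaving out single libraries gave ranges of -0.091 to 0.0069 for Gria4, -0.15 to 0.10 for Grin2c, -0.043 to 0.043 for Grin2d, -0.07 to 0.063 for Grik4, -0.047 to 0.068 for Grik5, -0.47 to 0.058 for Grm4, -0.29 to 0.056 for Gabra4, -1.29 to 0.69 for Gabra6, -0.16 to 0.0061 for Gabrb2, -0.40 to 0.20 for Gabrd, -0.75 to 0.0043 for Gabre and -0.13 to 0.034 for Gabbr1. In the shares, in percentage points, they were -2.2 to 0.849 for Gria1, -1.26 to 3.43 for Grin2c, 2.96 to 3.8 for Grik5, -0.596 to 4.88 for Gabra3 and -4.64 to 3.46 for Grm4. For all of these, the cause was not tested. With 3 libraries a group, exact tests cannot give a p under 0.1.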

Other observations

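Among the partner genes, 2 known from Purkinje and granule cells had their highest level in WT 3. Cbln1, the granule cell protein that links presynaptic neurexin to delta receptors, was at 66, 63.1 and 146 CPM in WT against 63.2, 77.6 and 60.1 CPM in libraries labelled Rag1-/-. Homer3, a scaffold of mGlu receptors in Purkinje cells, was at 12.2, 14.9 and 36.5 CPM in WT against 13.1, 19.6 and 14.9 CPM in libraries labelled Rag1-/-. In both, Rag1-/- 2 was the highest of its group. These genes were chosen after their values were seen.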
